A study of Mus musculus with 22 samples.

Results

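The genes described here carry the integrated stress response and the unfolded protein response. A list of 47 was made by name for their known roles, with earlier results of these data known. Its direction is therefore no independent evidence. Of the 47, 46 were measured among the 18193 genes of the arrays. Each gene was read from probe sets assigned to a single symbol, and of several the brightest was kept, judged by its average across the 22 arrays. Pycr1, an enzyme of proline synthesis, had no such probe set. Levels came from 22 Affymetrix arrays of mouse Rex1GFPd2 embryonic stem cells, a line with a green fluorescent reporter at the Rex1 locus. The 2i control arm was kept in 2i medium, which holds the inhibitors PD and CHIR, and received a control siRNA (siControl#1 on 4 arrays, siControl#2 on 3 arrays). The PD-only control arm received the same control siRNAs (4 and 3 arrays) but was moved to medium with PD and without CHIR 24 hours after transfection. The PD-only YAP/TAZ siRNA arm had the same change of medium and received siRNAs against YAP and TAZ (siYAP/TAZ#1 on 4 arrays, siYAP/TAZ#2 on 4 arrays). All arms were transfected with a lipid reagent and harvested 72 hours after transfection, so the controls carry transfection too. Only the PD-only arms are said to have had a change of medium, so the loss of CHIR and the change itself cannot be told apart. The knockdown lowers both genes together, so their separate parts cannot be told apart either. The arrays are labelled as biological replicates without saying whether these were made on separate days.

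When amino acids run short, unfolded protein accumulates in the endoplasmic reticulum (ER), or haem or viral RNA signals reach the cell, dedicated kinases phosphorylate the initiation factor eIF2, which lowers general translation and favours translation of ATF4. ATF4 is a transcription factor that, often with C/EBP partners, turns on genes for amino acid synthesis and import, for redox balance and, through CHOP (Ddit3), for growth arrest. Unfolded protein in the ER is also sensed by IRE1 (Ern1) and ATF6. Through spliced XBP1 and cleaved ATF6 they raise chaperones and the machinery of ER-associated degradation. PD blocks MEK and CHIR blocks GSK3, which keeps β-catenin stable, and in 2i medium both hold mouse embryonic stem cells in their undifferentiated state. YAP and TAZ are transcriptional coactivators of the Hippo pathway, which the study's title places in the complex that destroys β-catenin.

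The knockdown was read from the targets themselves. Yap1 lay at 11 to 11.07 (log2) on the PD-only control arrays and at 9.67 to 9.91 with YAP/TAZ siRNA, 41.4% of the control level. Wwtr1, which encodes TAZ, lay at 10.25 to 10.34 and 9.18 to 9.41, or 48.7% of the control level. Embryonic stem cell markers were bright throughout, with a summed linear signal over 8 genes of 69400 to 72700 in 2i control, 59110 to 60500 in PD-only control and 63420 to 65500 with YAP/TAZ siRNA; between the controls 2 of them were higher and 6 lower. The PD-only control arm stood apart from the other two in several respects. Its summed signal over 10 fibroblast markers was 1847 to 2021, against 240.4 to 288.8 in 2i control and 275.9 to 308.1 with YAP/TAZ siRNA, and 8 of the 10 were higher than in 2i control. Its sum over 9 primitive endoderm markers was 546.4 to 602.2 (247.2 to 275.5 and 257.3 to 299.3 in the other arms), with 6 of 9 higher than in 2i control. Dab2 differed most of the 9, at 4.71 to 5.15 in 2i control and 7.83 to 8.15 in PD-only control. The arrays of Gata4, Sox17, Sox7 and Pdgfra overlapped between the controls. The PD-only control sum over 8 trophoblast markers was 1777 to 2070 (804.4 to 857.9 and 1405 to 1680 in the other arms), with 5 of 8 higher than in 2i control and 1 lower. With YAP/TAZ siRNA the trophoblast markers split: against PD-only control, arrays did not overlap for 2 higher and 3 lower (21.1% and 19.3% of all genes). The Actb 3′ minus 5′ signal, a measure of RNA integrity and labelling, was 0.66 to 0.75 in PD-only control against 0.87 to 1.19 in 2i control and 0.88 to 1.07 with YAP/TAZ siRNA. The same signal of Gapdh differed less, at -0.09 to -0.06 against -0.04 to 0.04 and -0.07 to 0.05, and overlapped the YAP/TAZ siRNA arm. No marker is read as 0 on this scale. In such bulk samples fewer cells of a type and less RNA per cell cannot be told apart, and since every array is given the same distribution of values, a change in total RNA per cell would not show.

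Known binding motifs were searched for in RefSeq promoter sequences of build GRCm38.p6, over the 250 bases before the start of each gene, on both strands. Promoters were found for 41 of the 47 listed genes. The ATF4 composite element, which ATF4 binds with a C/EBP partner, was searched as TGATGNAA. It was present in 8 of the 41 genes (19.5%) and in 3.45% of all 32851 promoters of the table. The 41 genes had 44 promoters, and a gene counted if any of its promoters matched, whereas the second share is per promoter. The same holds for the motifs below. Windows around the matches are shown because the genes they precede include those with the largest differences of the set. Each runs 5′ to 3′ on the strand of its gene with 14 bases on either side, and capitals mark the match.
Chac1, chr2:119351035-119351070, plus strand: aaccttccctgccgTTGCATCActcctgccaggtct
Atf3, chr1:191183422-191183457, minus strand: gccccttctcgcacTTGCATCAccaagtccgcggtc
Nupr1, chr7:126625559-126625594, minus strand: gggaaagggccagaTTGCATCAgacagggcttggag
Vldlr, chr19:27216806-27216841, plus strand: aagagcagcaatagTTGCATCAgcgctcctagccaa
Asns, chr6:7693211-7693246, minus strand: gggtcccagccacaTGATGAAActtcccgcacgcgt
Slc7a11, chr3:50443658-50443693, minus strand: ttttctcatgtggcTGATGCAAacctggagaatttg
Slc7a11, chr3:50443639-50443674, minus strand: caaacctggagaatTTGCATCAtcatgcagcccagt
In Chac1, Atf3, Nupr1 and Vldlr the same 8 letters were read on the strand opposite to the gene. Herpud1 and the unmeasured Pycr1 also held a match.

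The ER stress element, through which ATF6 acts together with NF-Y, was searched as CCAAT and CCACG with any 9 bases between them. It was present in 5 of the 8 ER chaperone genes that had a promoter (62.5%), in no other listed gene, and in 0.113% of all promoters. Its matches are shown because no other group of the set shares a motif to this extent, with capitals again marking the match.
Hspa5, chr2:34772011-34772057, plus strand: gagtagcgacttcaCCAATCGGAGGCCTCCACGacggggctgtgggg
Hsp90b1, chr10:86705624-86705670, minus strand: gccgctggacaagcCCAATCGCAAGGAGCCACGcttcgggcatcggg
Hsp90b1, chr10:86705519-86705565, minus strand: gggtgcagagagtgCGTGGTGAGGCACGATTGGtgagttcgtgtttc
Calr, chr8:84847061-84847107, minus strand: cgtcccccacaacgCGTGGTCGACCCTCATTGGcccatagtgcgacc
Pdia6, chr12:17266477-17266523, plus strand: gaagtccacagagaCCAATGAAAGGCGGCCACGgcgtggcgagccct
Creld2, chr15:88819506-88819552, plus strand: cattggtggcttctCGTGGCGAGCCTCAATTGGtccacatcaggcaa
A second form, ER stress element II, was searched as ATTGG and CCACG with any 1 base between them and occurred in 0.0304% of all promoters and, among the listed genes, in Herpud1. Herpud1 encodes a membrane protein of ER-associated degradation, and it was the one listed gene with both kinds of element, so its 250 bases before the start are given whole, with the ATF4 composite element and then ER stress element II in capitals.
Herpud1, chr8:94386179-94386428, plus strand: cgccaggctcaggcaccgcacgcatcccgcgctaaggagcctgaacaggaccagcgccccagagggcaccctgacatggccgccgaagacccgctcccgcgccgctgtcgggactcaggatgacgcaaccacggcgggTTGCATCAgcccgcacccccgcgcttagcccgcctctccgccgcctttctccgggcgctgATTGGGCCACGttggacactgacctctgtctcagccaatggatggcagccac
None of these matches overlapped another. A match describes letters in the window and is no evidence of binding in these cells. Motifs and genes were both chosen as already known for these responses, so the shares with a match are no independent evidence.

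Between the control arms the set divided: the ER chaperones, Atf3, Cebpb, Ddit4, Edem1, Atf6 and Xbp1 were higher in PD-only medium than in 2i, and most amino acid enzymes and transporters were lower. A gene was called where limma's Benjamini-Hochberg adjusted p over all 18193 genes was under 0.05. By that rule 40 of the 46 genes were called, 20 higher and 20 lower, against 58% of all genes (26.7% higher, 31.3% lower). At 2-fold or more, 3 were higher (Atf3, Ddit4 and Cebpb) and 0 lower, against 5.81% of all genes in either direction (4.12% higher, 1.69% lower). The arrays of the arms did not overlap for 16 genes higher and 16 lower in PD-only control, against 37.6% of all genes (19% and 18.7%). The median difference of the set was -0.036 (log2), close to that of all genes, -0.044.

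In PD-only medium most of the set was lower with YAP/TAZ siRNA than with control siRNA, among them the stress transcription factors, Chac1, Vldlr, Herpud1 and the serine synthesis enzymes. In this comparison 41 of 46 genes were called, 37 lower and 4 higher (Asns, Shmt2, Sesn2 and Sdf2l1), against 61.8% of all genes (26.3% lower, 35.5% higher). Of these, 10 were lower by 2-fold or more and 0 higher, against 4.47% and 1.9% of all genes (6.37% in either direction). The arrays did not overlap for 33 genes lower and 4 higher, against 40.4% of all genes (19.3% and 21.1%). The median difference was -0.52 for the set and 0.06 for all genes.

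Set against 2i control, the cells with YAP/TAZ siRNA in PD-only medium had lower amino acid enzymes and transporters, CHOP and Trib3, and slightly higher levels of some ER chaperones. Here 37 of 46 genes were called, 31 lower and 6 higher (Ddit4, Sdf2l1, Hspa5, Dnajb9, Creld2 and Pdia6), against 48.3% of all genes (22.8% lower, 25.5% higher). At 2-fold or more 9 were lower, against 0.879% of all genes, and 0 were higher, against 0.632% (1.51% in either direction). The arrays did not overlap for 31 genes lower and 4 higher, against 28.3% of all genes (13.3% and 14.9%). The median difference was -0.60 for the set and 0.02 for all genes. The Actb signals of these arms overlapped, and with that signal as a covariate the set again had 31 lower and 6 higher. The 3 comparisons share arms, and each is given with its own values. Other processing moved the balance of directions: with every array centred on its median over genes, which shifted the first comparison by 0.12 and the second by 0.14, the set had 16 higher and 25 lower between the controls, where 19% of all genes were then higher and 57.5% lower. With YAP/TAZ siRNA in PD-only medium it had 9 higher and 30 lower after centring, where 64.4% of all genes were higher and 18.4% lower.

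**Figure D1:**
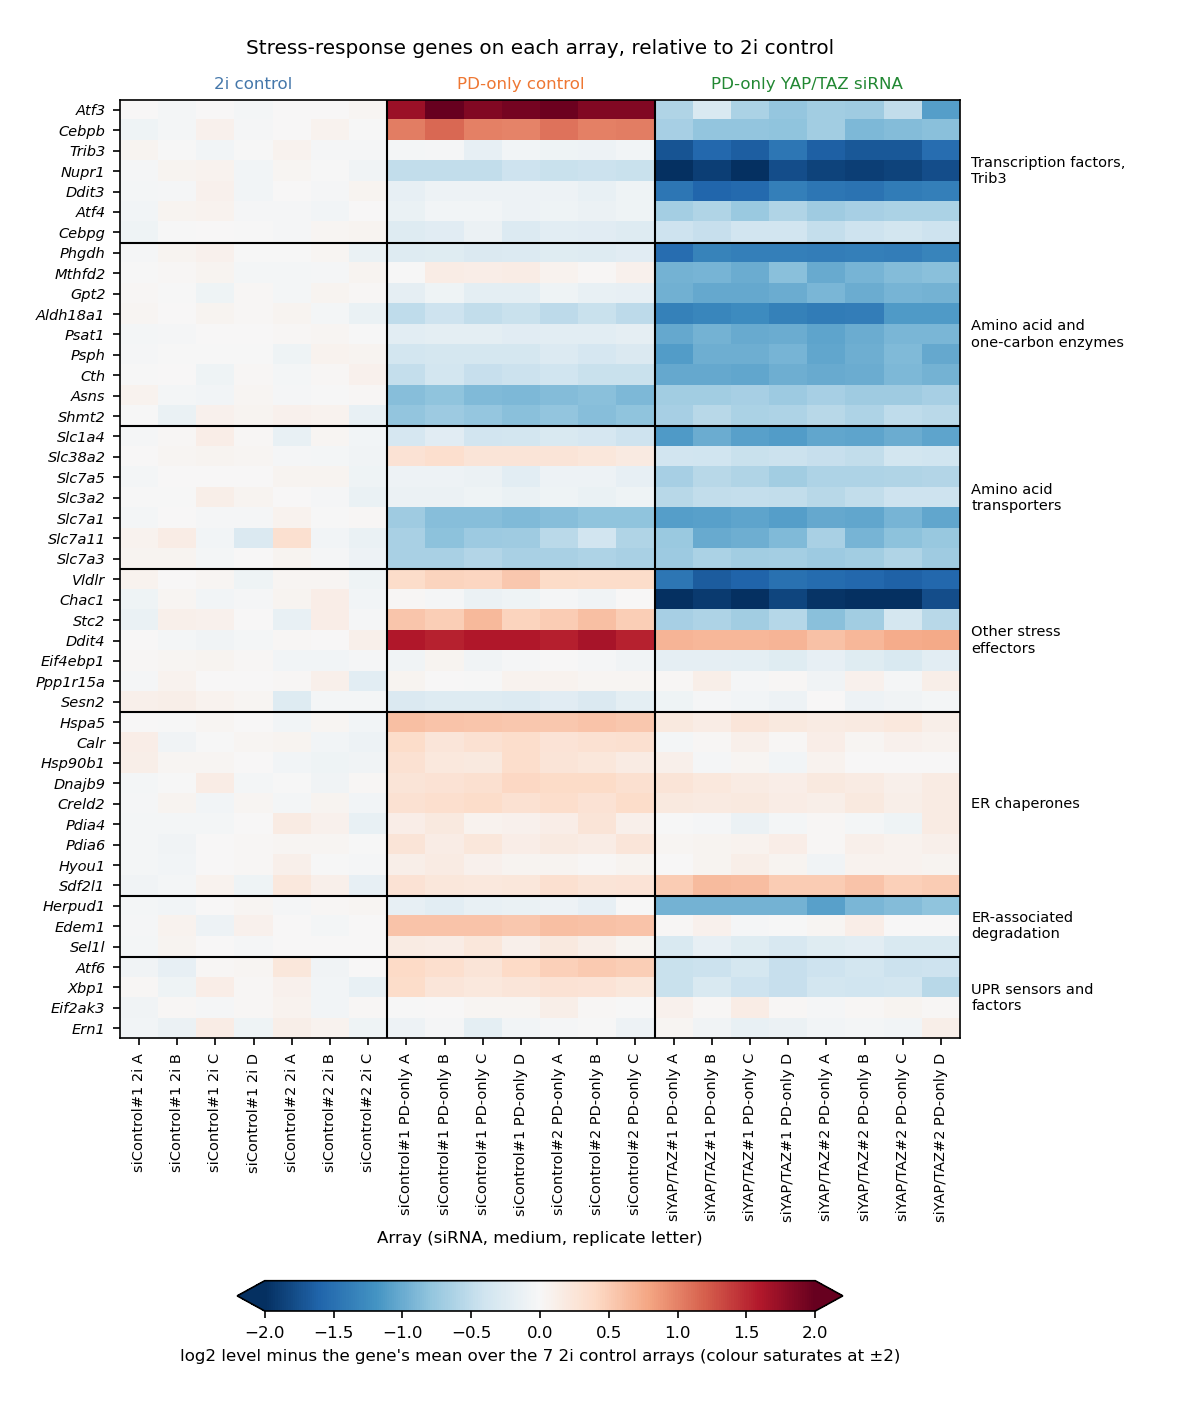
Log2 level of each of the 46 genes (rows, grouped by role) on each of the 22 arrays (columns), minus the gene's mean over the 7 arrays of 2i control, with red higher, blue lower and the colour saturating at ±2. Atf3, Cebpb and Ddit4 are red in PD-only control, and the blue block on the 8 YAP/TAZ siRNA arrays covers the transcription factors, the amino acid genes, Chac1 and Vldlr but not the ER chaperones.

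Among the regulators, Atf4, the transcription factor at the centre of the response, was abundant. Its arrays had a lowest, median and highest log2 level of 12.57, 12.60 and 12.69 in 2i control, 12.49, 12.53 and 12.56 in PD-only control and 11.87, 11.97 and 12.01 with YAP/TAZ siRNA. The arms did not overlap, and the YAP/TAZ siRNA arrays were the lowest. Against PD-only control Atf4 was lower by a log2 difference of -0.57 ± 0.027 (SE, adjusted p = 1.57e-13), 67.4% of that level. The smaller difference between the controls, -0.09 ± 0.028, had an adjusted p of 0.0109, which became 0.164 with the Actb signal as a covariate. ATF4 is controlled mainly through translation, and arrays of RNA do not read its protein.

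Ddit3 encodes CHOP, the factor that ATF4 raises under lasting stress. Its lowest, median and highest levels were 8.85, 8.87 and 8.99 in 2i control, 8.73, 8.79 and 8.82 in PD-only control and 7.32, 7.46 and 7.53 with YAP/TAZ siRNA. The siRNA arrays lay more than 1 log2 unit below all others: the difference from PD-only control was -1.34 ± 0.033 (adjusted p = 2.39e-18), 39.6% of the level. Between the controls Ddit3 differed by -0.12 ± 0.034 (adjusted p = 0.00624, or 0.159 with the Actb covariate). Trib3, a pseudokinase that CHOP and ATF4 induce and that dampens AKT and ATF4 itself, had levels of 9.16, 9.20 and 9.28, then 9.05, 9.16 and 9.19, then 7.48, 7.57 and 7.76 in the same order. Its control arms overlapped and the gene was not called between them (adjusted p = 0.107), but it was called lower there after centring (-0.20, adjusted p = 0.000221), with the mean of all probe sets (adjusted p = 0.00636), after a second quantile normalization (adjusted p = 0.0196) and in a fit of only the 2 arms (adjusted p = 0.045). The YAP/TAZ siRNA arrays were lower by -1.54 ± 0.039 (adjusted p = 3.44e-18). Nupr1, a small stress-induced chromatin protein, stepped down in both comparisons, from 10.77 to 10.92 in 2i control to 10.35 to 10.43 in PD-only control and 8.85 to 9.08 with YAP/TAZ siRNA. Its differences were -0.46 ± 0.036 and -1.41 ± 0.034, and it stood at 27.4% of 2i control with YAP/TAZ siRNA.

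Atf3 and Cebpb went up in PD-only control and down with the knockdown. Atf3, an immediate repressor induced by many stresses, had lowest, median and highest levels of 5.98, 6.02 and 6.06 in 2i control, 7.73, 7.87 and 8.28 in PD-only control and 4.92, 5.36 and 5.71 with YAP/TAZ siRNA. PD-only control was therefore the highest arm and YAP/TAZ siRNA the lowest, with no overlap. The differences were 1.91 ± 0.087 between the controls (adjusted p = 9.02e-14) and -2.58 ± 0.084 with the knockdown (adjusted p = 2.85e-16), the largest fall of the set. Cebpb, which encodes a C/EBP factor that can pair with ATF4, followed the same order at 8.70, 8.77 and 8.86, then 9.77, 9.80 and 9.93, then 7.89, 7.98 and 8.11. It was 2.05-fold higher in PD-only control (1.04 ± 0.037) and at 28.1% of that level with YAP/TAZ siRNA (-1.83 ± 0.036). Both stood below 2i control with YAP/TAZ siRNA, by -0.67 ± 0.084 for Atf3 and -0.80 ± 0.036 for Cebpb. The fibroblast, primitive endoderm and trophoblast sums were highest in the PD-only control arm, though the trophoblast sum stayed above 2i control with YAP/TAZ siRNA. The part of these sums in the differences was not tested. The Actb signal moved with the PD-only control arm too. With it as a covariate the calls of Atf3 and Cebpb did not change, but the covariate is confounded in part with the arm. Cebpg, a C/EBP partner of ATF4, was lower in both steps by small amounts, -0.23 ± 0.028 and -0.19 ± 0.027, and the second lost its call after arrays were centred (-0.05, adjusted p = 0.067). As a group the 7 regulators had 2 higher and 4 lower between the controls, 7 lower with YAP/TAZ siRNA in PD-only medium (5 by 2-fold or more) and 7 lower against 2i control. The shares of all genes were 26.7% higher and 31.3% lower between the controls. They were 26.3% lower with the knockdown (4.47% by 2-fold or more) and 22.8% lower against 2i control.

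**Figure D2:**
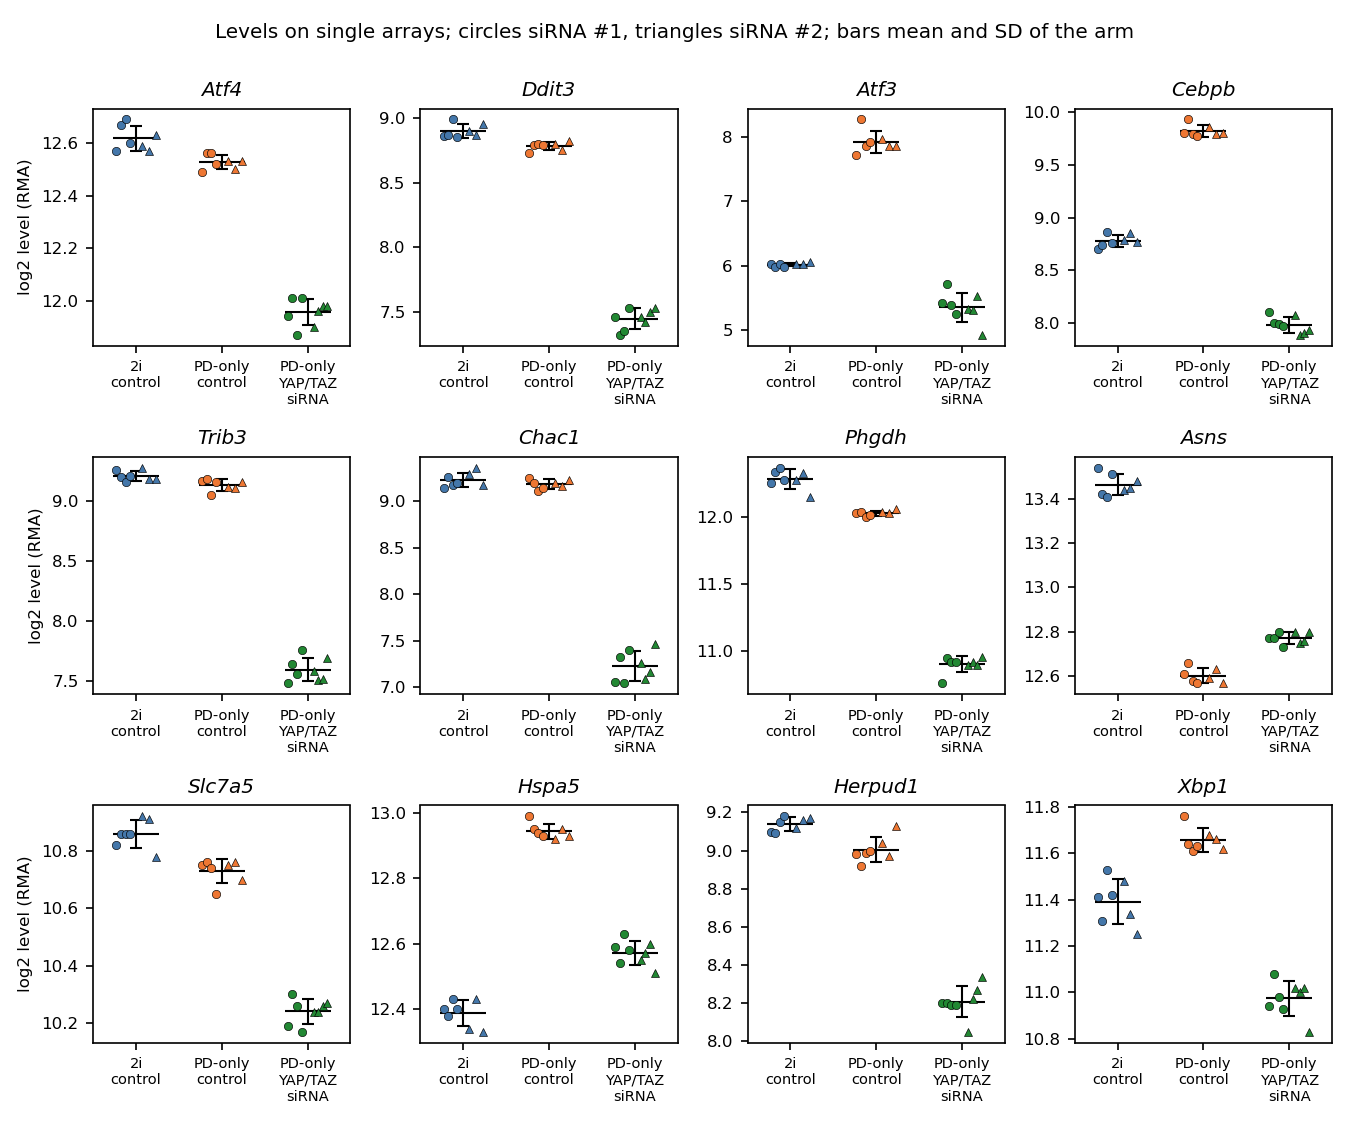
Log2 level on every array of 12 of the genes, by arm, with circles for siRNA #1, triangles for siRNA #2 and black bars for the arm's mean and SD; each panel has its own vertical range, which does not start at 0. Atf4, Ddit3, Trib3, Chac1, Phgdh, Slc7a5 and Herpud1 are lowest with YAP/TAZ siRNA, Asns is lowest in PD-only control, and Hspa5 is highest in PD-only control.

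The ATF4 targets of amino acid metabolism comprised 9 measured enzymes and 7 transporters. Between the controls 14 of the 16 were lower and 2 higher, with a median difference of -0.33, against -0.04 for all genes. With YAP/TAZ siRNA in PD-only medium 13 were lower, 2 higher and 1 was not called, with a median of -0.61 against 0.06. Against 2i control all 16 were lower and 4 fell by 2-fold or more, with a median of -0.95 against 0.02. Of all genes, 31.3% were lower and 26.7% higher between the controls, and 26.3% lower and 35.5% higher with the knockdown. Against 2i control 22.8% of all genes were lower, and 0.879% were lower by 2-fold or more. Taken array by array, the median over the 16 genes of the level minus its 2i control mean ran from -0.06 to 0.01 in 2i control, -0.37 to -0.29 in PD-only control and -0.99 to -0.87 with YAP/TAZ siRNA, so the arms did not overlap.

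Serine synthesis runs through Phgdh, Psat1 and Psph in that order. Phgdh had lowest, median and highest levels of 12.15, 12.28 and 12.37 in 2i control, 12.00, 12.03 and 12.06 in PD-only control and 10.76, 10.92 and 10.96 with YAP/TAZ siRNA. Most of its fall lay in the second step: -0.25 ± 0.033 between the controls and -1.13 ± 0.032 with the knockdown (adjusted p = 1.96e-17), or 45.7% of PD-only control. Psat1 followed with -0.20 ± 0.025 and -0.78 ± 0.024, and Psph with -0.33 ± 0.033 and -0.67 ± 0.032. On the siRNA arrays Psat1 stood at 50.5% and Psph at 50.2% of 2i control. None of the 3 genes had overlapping arms.

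Mthfd2 and Shmt2, mitochondrial enzymes that pass one-carbon units from serine to folate, moved differently from each other. Mthfd2 lay at 10.85 to 10.94 in 2i control, 10.89 to 11.04 in PD-only control and 9.88 to 10.05 with YAP/TAZ siRNA. The siRNA arrays stood apart below both controls, by -1.0 ± 0.033 from PD-only control (adjusted p = 2.75e-16). The difference between the controls, 0.09 ± 0.034 (adjusted p = 0.0356), was -0.03 after arrays were centred. It lost its call without any 1 of 9 arrays (adjusted p from 0.0565 to 0.0818): siControl#1 2i A and D, siControl#2 2i A and B, siControl#1 PD-only B, C and D, and siControl#2 PD-only A and C. Shmt2 lay at 10.47 to 10.71, then 9.77 to 9.89, then 9.95 to 10.11 in the same order. Its lowest arm was PD-only control: it was lower there than in 2i by -0.80 ± 0.039 and higher by 0.21 ± 0.038 with YAP/TAZ siRNA (adjusted p = 5.83e-05).

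Asns, the asparagine synthetase often used as the reference ATF4 target, shared the pattern of Shmt2. Its lowest, median and highest levels were 13.41, 13.45 and 13.54 in 2i control, 12.57, 12.59 and 12.66 in PD-only control and 12.73, 12.77 and 12.80 with YAP/TAZ siRNA. The arms did not overlap, and the fall between the controls, -0.86 ± 0.026 (adjusted p = 7.35e-17), was followed by a rise of 0.17 ± 0.025 with the knockdown (adjusted p = 4.13e-06). So while Atf4, Ddit3 and Trib3 were lower with YAP/TAZ siRNA than in PD-only control, Asns was higher. The proline enzyme Aldh18a1 fell in both steps, by -0.47 ± 0.042 and -0.81 ± 0.041, to 41% of 2i control. Cth, which makes cysteine, fell by -0.44 ± 0.027 and -0.55 ± 0.026, and Gpt2, a mitochondrial alanine transaminase, by -0.15 ± 0.028 and -0.82 ± 0.027.

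Of the transporters, the cationic amino acid carriers Slc7a1 and Slc7a3 differed mainly between the controls. Slc7a1 lay at 12.15 to 12.25 in 2i control, 11.31 to 11.48 in PD-only control and 11.09 to 11.25 with YAP/TAZ siRNA, with differences of -0.82 ± 0.028 and -0.23 ± 0.027. Slc7a3 differed by -0.63 ± 0.028 between the controls, while the siRNA arrays overlapped PD-only control (-0.05 ± 0.027, adjusted p = 0.15). The neutral carriers differed mainly with the knockdown. Slc1a4, which carries serine and alanine, lay at 8.84 to 9.12, 8.58 to 8.76 and 7.86 to 7.99, with differences of -0.33 ± 0.035 and -0.72 ± 0.034. Slc7a5 and Slc3a2, the light and heavy chains of the leucine carrier LAT1, were lower with the knockdown by -0.49 ± 0.028 and -0.38 ± 0.029, and lower between the controls by -0.13 ± 0.029 and -0.10 ± 0.030. Slc38a2, the glutamine carrier SNAT2, was the one transporter higher in PD-only control, with 12.30 to 12.42, 12.55 to 12.71 and 11.87 to 12.00, differences of 0.26 ± 0.025 and -0.68 ± 0.024. Slc7a11, the cystine carrier, was dim at 2.87 to 4.19 over all arrays. It was lower between the controls (-0.62 ± 0.075), and its difference with the knockdown (-0.23 ± 0.072, adjusted p = 0.00967) came from overlapping arms, was not called after centring (adjusted p = 0.253) and was 0.0024 (adjusted p = 0.99) with the Actb covariate.

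**Figure D3:**
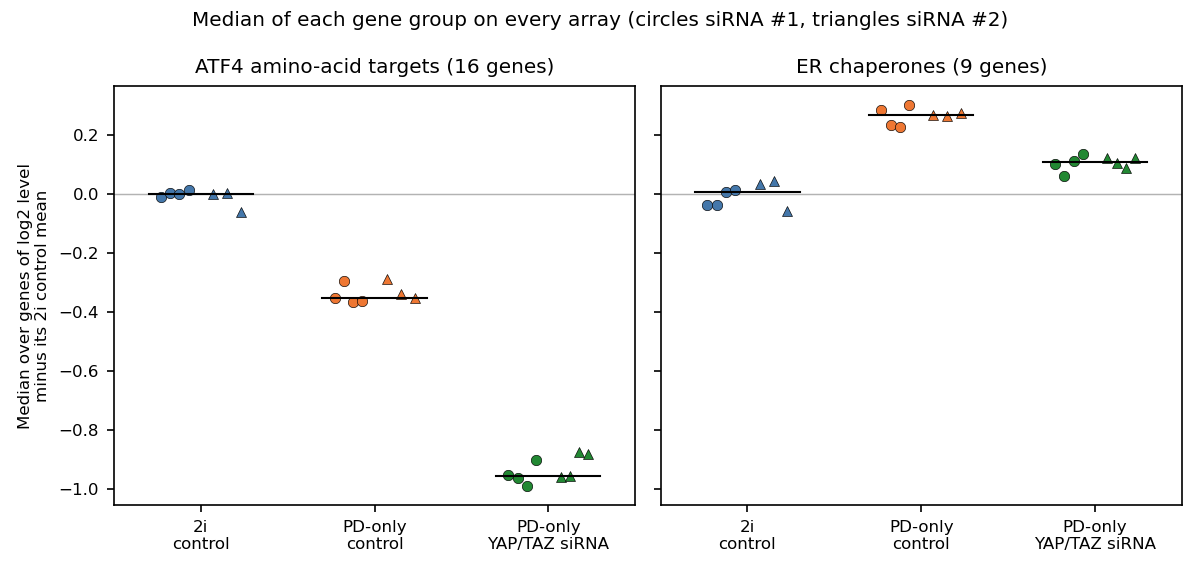
Each point is one array: the median over the 16 ATF4 amino-acid targets (left) or the 9 ER chaperones (right) of the log2 level minus its 2i control mean, with circles for siRNA #1, triangles for siRNA #2 and a line at the arm's median. The amino-acid targets step down from 2i control to PD-only control to YAP/TAZ siRNA, while the chaperones are highest in PD-only control, at 0.23 to 0.30.

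Of the 7 remaining effectors 3 were higher and 1 lower between the controls (3 and 3 after centring), and 1 was higher and 5 lower with the knockdown (2 and 4 after centring). Before centring, 26.7% of all genes were higher and 31.3% lower between the controls, and 35.5% higher and 26.3% lower with the knockdown. Chac1, which degrades glutathione and is induced by ATF4, ATF3 and CHOP, had lowest, median and highest levels of 9.14, 9.20 and 9.36 in 2i control, 9.11, 9.20 and 9.25 in PD-only control and 7.04, 7.21 and 7.46 with YAP/TAZ siRNA. The controls overlapped (-0.05 ± 0.060, adjusted p = 0.515; -0.17, adjusted p = 0.0154 after centring) and the siRNA arrays stood at 25.6% of PD-only control (-1.96 ± 0.058, adjusted p = 5.69e-17). Vldlr, a lipoprotein receptor raised by ATF4, lay at 7.93 to 8.09, 8.38 to 8.55 and 6.35 to 6.57. It was higher in PD-only control by 0.41 ± 0.038 and lower with the knockdown by -1.97 ± 0.036, or 25.5% of that control. Read from a probe set whose name has no _s, _x or _a ending, Vldlr was not called between the controls (0.13, adjusted p = 0.185). Stc2, a secreted glycoprotein induced by ER stress, showed the same order with 0.53 ± 0.063 and -1.15 ± 0.061.

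Ddit4 (REDD1), an inhibitor of mTORC1, was the one effector that stayed above 2i control with YAP/TAZ siRNA. Its levels were 9.14, 9.21 and 9.31 in 2i control, 10.74, 10.80 and 10.85 in PD-only control and 9.79, 9.88 and 9.97 with YAP/TAZ siRNA. The 3 arms were fully separate, with differences of 1.58 ± 0.030 between the controls, -0.90 ± 0.029 with the knockdown and 0.68 ± 0.029 against 2i control. Sesn2, another mTORC1 inhibitor that also senses leucine, was lower in PD-only control (-0.24 ± 0.032) and higher with the knockdown (0.20 ± 0.031, adjusted p = 1.04e-05, or 0.164 with the Actb covariate). Against 2i control Sesn2 was not called on the probe set kept (-0.04, adjusted p = 0.298), but it was lower with the mean of all probe sets (-0.41, adjusted p = 2e-08) and with the siRNAs numbered 1 alone (-0.15, adjusted p = 0.00224). Eif4ebp1, which represses cap-dependent translation, was not called between the controls (-0.02 ± 0.027, adjusted p = 0.481; -0.14, adjusted p = 4.76e-05 after centring) and was lower by -0.19 ± 0.026 with the knockdown, a call lost after centring (-0.05, adjusted p = 0.0648). Ppp1r15a (GADD34), the phosphatase subunit that dephosphorylates eIF2, was not called in any comparison: its arms lay at 8.56 to 8.88, 8.77 to 8.84 and 8.71 to 8.89, with differences of 0.04 ± 0.042, -0.005 ± 0.040 and 0.04 ± 0.040. With the Actb covariate it differed by -0.15 (adjusted p = 0.0476) and 0.19 (adjusted p = 0.0127) in the first and second comparison.

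The ER chaperones and folding enzymes behaved differently from the amino-acid targets. All 9 were higher in PD-only control than in 2i, with a median difference of 0.26, none by 2-fold or more; 7 stayed called higher once arrays were centred (median 0.14), and 6 with the Actb covariate. With YAP/TAZ siRNA in PD-only medium 7 were lower, 1 higher and 1 not called, with a median of -0.17, but after centring 3 were lower and 2 higher, with a median of -0.03. Against 2i control 5 were higher, 0 lower and 4 not called, with a median of 0.07. Between the controls 26.7% of all genes were higher. With the knockdown 26.3% were lower and 35.5% higher, and against 2i control 25.5% were higher. After centring, most of all genes were lower in the first comparison and higher in the second. Per array, the median over the 9 genes ran from -0.06 to 0.04 in 2i control, 0.23 to 0.30 in PD-only control and 0.06 to 0.14 with YAP/TAZ siRNA. Fibroblast, primitive endoderm and trophoblast marker sums were highest in the PD-only control arm here too, and their part was not tested. The Actb signal also moved with that arm, so its covariate is confounded in part with the arm.

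Hspa5 encodes BiP, the main Hsp70 of the ER and the usual readout of the unfolded protein response. Its lowest, median and highest levels were 12.33, 12.40 and 12.43 in 2i control, 12.92, 12.94 and 12.99 in PD-only control and 12.51, 12.57 and 12.63 with YAP/TAZ siRNA. The arms were separate, with PD-only control the highest and YAP/TAZ siRNA between the controls. It was 1.47-fold higher in PD-only control (0.56 ± 0.024, adjusted p = 2.71e-14), lower with the knockdown by -0.37 ± 0.023 (adjusted p = 1.05e-11), and higher than in 2i control by 0.19 ± 0.023 (adjusted p = 6.93e-07). Dnajb9, a co-chaperone of BiP induced by XBP1, and Creld2, a secreted ER stress protein, showed the same order with 0.34 ± 0.035 and -0.17 ± 0.034, and 0.33 ± 0.027 and -0.17 ± 0.026. The fall of both with the knockdown was lost after centring (adjusted p = 0.391 and 0.286).

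Calr and Hsp90b1, the calcium-binding chaperones calreticulin and GRP94, were higher in PD-only control by 0.31 ± 0.035 and 0.25 ± 0.031 and lower with the knockdown by -0.25 ± 0.034 and -0.23 ± 0.030. Against 2i control the siRNA arrays overlapped for both (0.06 ± 0.034, adjusted p = 0.15, and 0.03 ± 0.030, adjusted p = 0.547), and Calr was called there without siControl#1 2i replicate A (0.08, adjusted p = 0.0471). The disulfide isomerases Pdia6 and Pdia4 differed less, by 0.19 ± 0.028 and 0.14 ± 0.046 between the controls and -0.11 ± 0.027 and -0.16 ± 0.045 with the knockdown. Their calls with the knockdown were lost with the Actb covariate (adjusted p = 0.39 for Pdia6 and 0.557 for Pdia4), and a further probe set of Pdia4 was called the opposite way there. Pdia4 in the first comparison lost its call without siControl#2 2i replicate C (0.09, adjusted p = 0.0603) or siControl#2 PD-only replicate B (0.12, adjusted p = 0.0519). That call was also lost with the mean of all probe sets (0.0073, adjusted p = 0.863), after centring (0.018, adjusted p = 0.717) and with the second siRNAs alone (adjusted p = 0.293). The fall of Pdia4 with the knockdown was lost with the mean of all probe sets too (-0.017, adjusted p = 0.648). Pdia6 against 2i control (0.07 ± 0.027, adjusted p = 0.0311) lost its call without any 1 of 6 arrays (adjusted p from 0.0537 to 0.0734), namely siControl#1 2i A and B, siControl#2 2i C, siYAP/TAZ#1 D and siYAP/TAZ#2 B and D. Hyou1, an ER Hsp110, was called between the controls at 0.07 ± 0.030 (adjusted p = 0.0411), and was not called with the knockdown (-0.03 ± 0.029, adjusted p = 0.351). A probe set of Hyou1 without an _s, _x or _a ending rose with the knockdown (0.22, adjusted p = 0.000393). The first call was lost without any 1 of 8 arrays (adjusted p from 0.0589 to 0.106), namely siControl#1 2i A and B, siControl#2 2i B and C, siControl#1 PD-only A and B, and siControl#2 PD-only A and C.

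Sdf2l1, an ER protein that works with BiP and its J-domain partners, departed from the other chaperones. Its lowest, median and highest levels were 7.75, 7.88 and 8.12 in 2i control, 8.13, 8.18 and 8.23 in PD-only control and 8.40, 8.43 and 8.55 with YAP/TAZ siRNA. Each arm lay above the one before, with differences of 0.26 ± 0.044 (adjusted p = 3.53e-05, or 0.23 with the Actb covariate) and 0.28 ± 0.042 (adjusted p = 6.5e-06). In the siRNA arm it was 1.45-fold above 2i control.

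The 3 genes of ER-associated degradation were all lower with the knockdown than in PD-only control, as were 26.3% of all genes. Herpud1, whose promoter window holds both kinds of element, had lowest, median and highest levels of 9.09, 9.15 and 9.18 in 2i control, 8.92, 8.99 and 9.13 in PD-only control and 8.05, 8.20 and 8.34 with YAP/TAZ siRNA. The controls overlapped and the siRNA arrays were well below both: -0.80 ± 0.035 from PD-only control (adjusted p = 4.22e-14) and 52.4% of 2i control. Edem1, a lectin that hands misfolded glycoproteins to degradation, lay at 8.82 to 9.0, 9.45 to 9.52 and 8.89 to 9.04. It was higher in PD-only control by 0.58 ± 0.030, lower with the knockdown by -0.54 ± 0.029, and not called against 2i control (0.03 ± 0.029, adjusted p = 0.387). Sel1l, the adaptor of the HRD1 ubiquitin ligase, differed by 0.14 ± 0.031 and -0.40 ± 0.030. The first call was lost with the mean of all probe sets (0.05, adjusted p = 0.144), after centring (0.02, adjusted p = 0.528) and with the second siRNAs alone (adjusted p = 0.0779). Its call against 2i control (-0.26 ± 0.030) had another probe set called the opposite way and was lost with the mean of all probe sets (adjusted p = 0.261).

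Among the sensors and their factors, Atf6 and Xbp1 changed and the kinases did not pass the test. Atf6, which is cleaved to an active factor under ER stress, lay at 7.76 to 8.14 in 2i control, 8.17 to 8.44 in PD-only control and 7.46 to 7.57 with YAP/TAZ siRNA, with differences of 0.42 ± 0.041 and -0.83 ± 0.040 (adjusted p = 1.66e-13). Xbp1, whose mRNA IRE1 splices, lay at 11.25 to 11.53, 11.61 to 11.76 and 10.83 to 11.08, with 0.27 ± 0.044 and -0.68 ± 0.042 (adjusted p = 1.11e-11). From an Xbp1 probe set without an _s, _x or _a ending the first difference was 0.06 and not called (adjusted p = 0.45). On the probe sets kept, both were the highest in PD-only control and the lowest with YAP/TAZ siRNA. These probe sets were not used to tell spliced from unspliced Xbp1. Ern1, which encodes IRE1α, spanned 7.18 to 7.51 over all arms, and Eif2ak3, which encodes PERK, spanned 9.0 to 9.22. Neither was called in any of the 3 comparisons, with adjusted p from 0.186 to 0.599 for Ern1 and 0.21 to 0.665 for Eif2ak3. After centring both were called lower between the controls (-0.19 and -0.09) and higher with the knockdown (0.17 and 0.15).

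**Figure D4:**
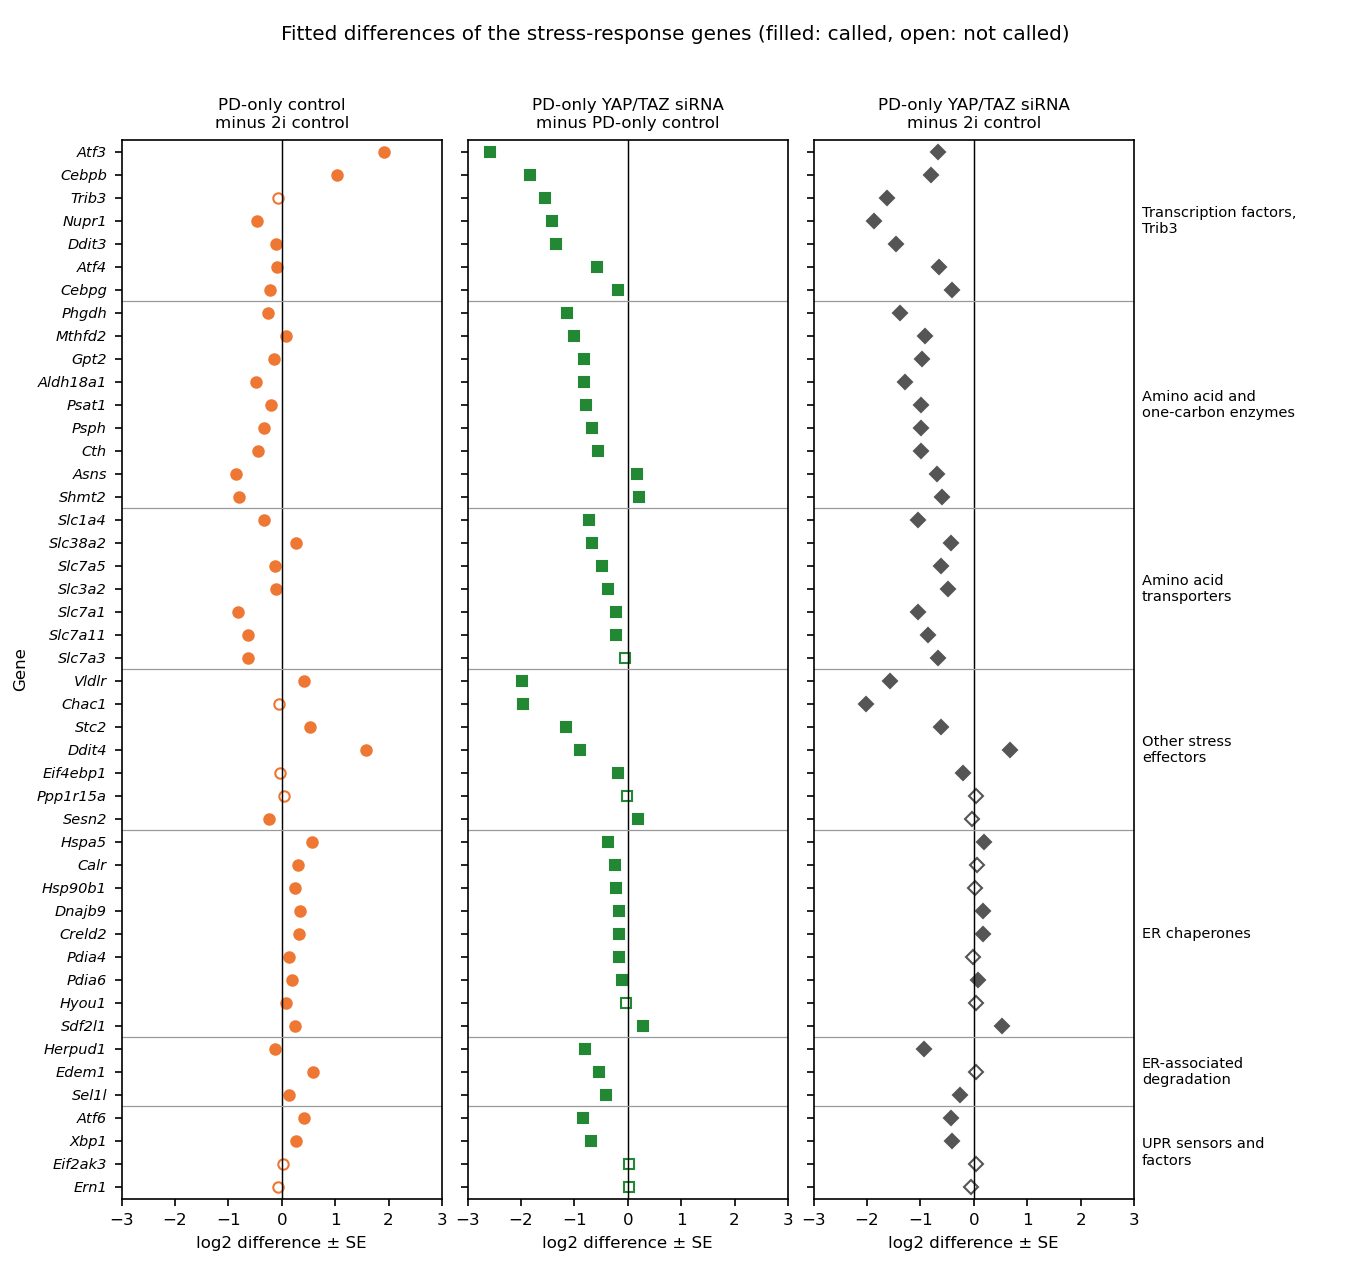
Fitted log2 difference of each gene, with its SE as a horizontal bar (mostly within the symbol), in the 3 comparisons, with filled symbols for called genes and open symbols for genes not called. In the middle panel 37 symbols lie left of 0 and are filled, from -2.58 for Atf3 upward, and the filled symbols right of 0 are Asns, Shmt2, Sesn2 and Sdf2l1; in the right panel all 16 amino-acid targets are left of 0.

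Genes with an ATF4 composite element in their promoter window did not all move together. Of the 7 that were measured, 6 were lower with the knockdown than in PD-only control, as were 37 of all 46 genes of the set, from -0.23 for Slc7a11 to -2.58 for Atf3, and Asns was higher by 0.17. The 5 ER chaperones with an ER stress element were all higher in PD-only control than in 2i, from 0.19 for Pdia6 to 0.56 for Hspa5. So were all the other measured ER chaperones, and 26.7% of all genes. The 5 were all lower with the knockdown, from -0.11 for Pdia6 to -0.37 for Hspa5, as were Dnajb9, Pdia4 and 26.3% of all genes. After centring, Creld2 and Pdia6 were not called in the second comparison (-0.03 and 0.02). Among the chaperones with a promoter but no match, Dnajb9 had differences within the same ranges. Pdia4 differed less than these between the controls, and Sdf2l1 was higher with the knockdown.

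The siRNAs of a kind were also compared with each other. Between siYAP/TAZ#2 and siYAP/TAZ#1 in PD-only medium 0 of 46 genes were called by limma, as were 0% of all genes, and the largest difference was -0.17 for Atf3. At an unadjusted p under 0.05 there were 0 of the 46 and 649 of all genes. Between siControl#2 and siControl#1 the count was 0 in 2i and 0 in PD-only medium (4 and 1 genes at an unadjusted p under 0.05, against 1450 and 769 of all genes), and the largest differences were -0.19 for Sesn2 and 0.22 for Slc7a11. The medium difference under each control siRNA was tested as an interaction and also gave 0 calls (1 and 949 at an unadjusted p under 0.05). A p that misses the threshold does not show that the siRNAs act alike.

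Other genes of the same pathways were listed by role. Their counts stand against 26.7% of all genes higher and 31.3% lower between the controls (19% and 57.5% after centring), and 35.5% higher and 26.3% lower with the knockdown (64.4% and 18.4% after centring). The eIF2 list held eIF2 kinases, eIF2 subunits, eIF2B subunits and also Ppp1r15b, Ppp1cc and Impact, which are none of these. Of its 13 measured genes, 10 were higher and 0 lower with the knockdown than in PD-only control (median 0.13). Among the higher genes were Eif2b5, the catalytic subunit of eIF2B (0.61 ± 0.025, after -0.56 ± 0.025 between the controls), and the haem-regulated kinase Eif2ak1 (0.35 ± 0.056). Of 19 cytosolic aminoacyl-tRNA synthetases, many of which ATF4 induces, 13 were lower and 3 higher (10 and 6 after centring; median -0.25), with Cars (-0.63 ± 0.037), Nars (-0.52 ± 0.024) and Gars (-0.51 ± 0.029) lower and Farsa higher (0.57 ± 0.033). Of 19 further ATF4 targets 10 were lower and 7 higher (9 and 8 after centring; median -0.20). The largest falls there were those of Jdp2, an AP-1 repressor (-2.41 ± 0.042), Atf5, an ATF4-related factor (-1.60 ± 0.038), Vegfa (-1.37 ± 0.064) and the glutamine carrier Slc38a1 (-1.24 ± 0.023). Between the controls Vegfa and Jdp2 were higher (1.14 ± 0.066 and 0.97 ± 0.043), and the branched-chain transaminase Bcat1 and the folate enzyme Aldh1l2 were lower (-1.04 ± 0.023 and -1.16 ± 0.069).

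Of 27 further ER stress genes 12 were higher and 9 lower between the controls, but 6 and 14 after centring, and 8 were higher and 14 lower with the knockdown, but 12 and 7 after centring, the direction in which all genes moved too. Derl3 and Manf, both induced by ER stress, were higher in PD-only control by 0.66 ± 0.052 and 0.60 ± 0.026, and the ER oxidases Ero1b and Ero1a were higher with the knockdown by 0.54 ± 0.035 and 0.48 ± 0.036. Of 11 cytosolic heat shock genes 5 were higher and 2 lower between the controls (3 and 6 after centring), with Cryab, a small heat shock protein, higher by 5.44 ± 0.052 and lower by -4.89 ± 0.050 with the knockdown. Hspa1b and Hspa1a, the inducible Hsp70 genes, which are near-identical copies that probe sets may not separate, were higher in PD-only control by 2.14 ± 0.055 and 1.16 ± 0.085 and then lower by -0.95 ± 0.053 and -0.88 ± 0.082. The heat shock list was split with the knockdown: arrays did not overlap for 4 genes higher and 5 lower (21.1% and 19.3% of all genes). For YAP/TAZ siRNA against 2i control they did not overlap for 4 higher and 0 lower (14.9% and 13.3% of all genes). Of 11 NRF2 antioxidant genes, which include Slc7a11, 7 were higher and 3 lower with the knockdown (median 0.32), with Nqo1 (1.79 ± 0.041), Gsr (1.32 ± 0.039) and Srxn1 (0.96 ± 0.030) the furthest up. Of 10 mitochondrial chaperones and proteases 5 were higher and 0 lower with the knockdown (10 and 0 after centring), led by Lonp1 (0.41 ± 0.031) and Afg3l2 (0.39 ± 0.031).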

How the data were processed

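Total RNA was labelled with biotin by a 3′ IVT kit and hybridised 1 sample per array, per the labels' protocols. The authors deposited log2 values per probe set made with RMA, per the submitters' processing notes; the values run from 2.09 to 14.91 with 2 decimals, and no RMA version is given in the sources. The raw scans were not used here, so background, saturation and detection of single probes are unknown. RMA gives all arrays alike distributions. Of 45101 probe sets, 34945 had 1 gene symbol, 932 several and 9160 none; 64 were control probe sets. They gave 18193 genes. Symbols came from the platform annotation. The RefSeq gene table held the Entrez number of 34741 of these probe sets.

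limma 3.58.1 in R 4.3.3 was fitted to all 18193 genes and 22 arrays with 1 mean for each of 6 siRNA and medium groups, which left 16 residual degrees of freedom beside 3.1 from the prior. Each arm was the average of its siRNAs, equally weighted, and p-values were adjusted over all genes by the Benjamini-Hochberg method. Differences are in log2 and errors are SE of the fit. No low-value filter was used. The code was tested on simulated data. No batch, slide or scan was given in the tables used here.

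The genes and lists were chosen with earlier results of these data known, so a list's direction is no independent evidence. Named genes were every measured gene of the set, Yap1 and Wwtr1, and from each other list up to 4 called genes with the largest difference per comparison, some of which are left unprinted. Promoters were from RefSeq (GRCm38.p6). Alternatives were other probe set rules, a filter on dim genes, centring, a second quantile normalization, array weights, a replicate block, a random siRNA block (statmod 1.5.0), pooled siRNAs, 1 siRNA per arm, only 2 arms, trended robust variance, the Actb 3′ minus 5′ signal as a covariate and leaving out each array. Figures were drawn with matplotlib.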

Additional observations from a re-analysis of the deposited data

Results flagged for a closer look

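Within the arms, single arrays stood far from their neighbours for 9 of the 138 combinations of gene and arm tested; chance alone flags about 1 in 20 groups. The value given is the gap to the nearest array divided by the arm's whole range. In 2i control these were Sesn2 low on siControl#2 replicate A (9.63 against 9.85, gap 0.595), Ppp1r15a low on siControl#2 replicate C (8.56 against 8.76, gap 0.625) and Dnajb9 high on siControl#1 replicate C (9.41 against 9.27, gap 0.609). In PD-only control they were Cebpg high on siControl#1 replicate C (8.99 against 8.90, gap 0.6), Hspa5 high on siControl#1 replicate A (12.99 against 12.95, gap 0.571) and Eif2ak3 high on siControl#2 replicate A (9.18 against 9.11, gap 0.583). With YAP/TAZ siRNA they were Phgdh low on siYAP/TAZ#1 replicate A (10.76 against 10.90, gap 0.7), Slc7a1 high on siYAP/TAZ#2 replicate C (11.25 against 11.16, gap 0.562) and Pdia4 high on siYAP/TAZ#2 replicate D (9.77 against 9.62, gap 0.536). Without siControl#2 2i replicate A, Sesn2 was called lower with YAP/TAZ siRNA than in 2i control (-0.08, adjusted p = 0.0118), as it was with the mean of all probe sets (-0.41, adjusted p = 2e-08) and with the siRNAs numbered 1 alone (-0.15, adjusted p = 0.00224).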

How the results depend on the processing

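Leaving out each array in turn gave 38 to 40, 41 to 41 and 36 to 38 called genes of the set in the 3 comparisons (PD-only control against 2i control, YAP/TAZ siRNA against PD-only control, YAP/TAZ siRNA against 2i control). The calls lost this way were of Mthfd2, Hyou1 and Pdia4 in the first and Pdia6 in the third. The median of the ER chaperones in the first comparison then ran from 0.25 to 0.30. At 2-fold or more the counts fell to 3, 10 and 9 genes of the set and 1057, 1158 and 275 of all genes. Centring arrays gave 3458 higher and 10463 lower of all genes in the first comparison and 11710 and 3346 in the second, against 4857 and 5702, and 6463 and 4787. It turned Mthfd2 (-0.034), Hyou1 (-0.046) and Eif2ak3 (-0.090) in the first and Slc7a3 (0.092), Ppp1r15a (0.13), Hyou1 (0.11) and Pdia6 (0.023) in the second. The Actb covariate turned Ppp1r15a (-0.15) and Pdia4 (-0.069) in the first and Slc7a11 (0.0024), Ppp1r15a (0.19) and Pdia4 (0.053) in the second. It is confounded in part with the arm, since PD-only control does not overlap the others. The mean of all probe sets turned Hsp90b1 in the third (-0.085), and probe sets without an _s, _x or _a ending turned Hyou1 in the second (0.22). Only 38 of the 46 genes had such a probe set, so medians with those probe sets may cover fewer genes. The median of the ATF4 amino-acid targets was -0.44 with those probe sets and -0.45 after centring in the first comparison. In the second it was -0.55 with those probe sets, -0.67 without dim genes and -0.47 after centring. In the third it was -0.78 with the mean of all probe sets and -0.87 with those probe sets. The median of the ER chaperones was 0.14 after centring in the first comparison and -0.028 in the second. In the third it was 0.17 with the mean of all probe sets, 0.17 with those probe sets and 0.12 with the second siRNAs alone. The cause of these moves was not tested.

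Arrays of one replicate letter did not deviate together: over 51 pairs r ran from -0.08 to 0.12 with a median of 0.0018, 2 of them over 0.1. Fitted with a replicate block, Hyou1 in the first comparison (0.07, adjusted p = 0.0593) and Pdia6 in the third (0.07, adjusted p = 0.0512) lost their calls, and no other gene of the set changed. With only the second siRNAs 9 calls of the first comparison were lost (Atf4, Ddit3, Mthfd2, Slc3a2, Sesn2, Hyou1, Pdia4, Herpud1 and Sel1l), where 3 arrays per control arm remain. Of 34 genes with several probe sets, all were called one way for 18, 23 and 21 in the 3 comparisons. The number of arrays and the unknown background limit the small differences and the dim Slc7a11.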
